A study of Mus musculus with 22 samples.

Results

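The 10 genes described here mark vascular endothelium: Pecam1, Cdh5, Emcn, Tie1, Tek, Kdr, Flt1, Vwf, Cldn5 and Esm1. They were named by symbol as textbook markers, but with earlier results of these data known, so the choice was not independent of the data. Each was read by the brightest probe set annotated to that symbol alone. All 10 were among the 18193 genes measured and the 15534 that passed the filter on dim genes in cultured cells. The study asked how tenascin C (TNC), a matrix glycoprotein, bears on the response of the mouse aorta to stress. Expression was measured on 22 Affymetrix arrays, 14 of cells labelled as aortic smooth muscle and 8 of aortic tissue, all from male C57BL/6 mice.

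The cells came from the suprarenal aorta of TNC knockout (KO) mice by enzymatic dispersion, so every culture, controls included, lacked its own intact Tnc gene. There were 3 unstimulated cultures, 3 given tumour necrosis factor alpha (TNF) at 10 ng/mL, 4 given TNC added to the culture at 10 ug/mL, and 4 given TNC and TNF at these doses, each on 1 array and described as independent cultures. The design text gives 24 h of TNF, whereas source labels give each array another hour, between 23 and 36, and were set aside. For the TNC-alone arrays the treatment label was followed, since their titles say "TNC or TNF". Each tissue array held RNA pooled from wild-type (WT) or KO mice, from a 10 mm segment above (suprarenal) or below (infrarenal) the renal arteries. Untreated pools held 5 mice. Pools called CaAngII held 8 mice given 0.5 M CaCl2 around the infrarenal aorta and angiotensin II at 1 ug/min/kg for 1 week. Values are deposited intensities, called signal here. With 1 pool per condition, tissue ratios have no replicate check and no test.

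Endothelial cells line every vessel and hold together through adherens junctions built on VE-cadherin (Cdh5), PECAM-1 (Pecam1) and tight junctions with claudin-5 (Cldn5). They sense vascular endothelial growth factors (VEGF) through Kdr and Flt1, and angiopoietins through Tek, whose partner Tie1 has no established ligand of its own. Von Willebrand factor (Vwf), a clotting glycoprotein, is stored in endothelial granules and also made by megakaryocytes, the sialomucin endomucin (Emcn) covers the luminal face, and the secreted proteoglycan endocan (Esm1) is known as a VEGF-induced gene of sprouting tip cells. Transcription factors of the ETS family, which bind a GGAA core, take part in the control of many endothelial genes.

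Promoter sequence was found in RefSeq (GRCm38.p6) for 7 of the 10 genes, as windows of 300 bases from 250 before to 50 after the start. Those shown belong to Emcn, higher in every culture than in any aortic pool, to Kdr and Cldn5, near or under the array median in the cultures, and to Esm1, which had the highest CaAngII ratios of these 10 genes in the aorta. Emcn lies at chr3:137340828-137341127 on the plus strand, Kdr at chr5:75978406-75978705 on the minus strand, Cldn5 at chr16:18776597-18776896 on the plus strand and Esm1 at chr13:113209409-113209708 on the plus strand. Capitals mark the core, GGAA or its reverse complement TTCC.
Emcn: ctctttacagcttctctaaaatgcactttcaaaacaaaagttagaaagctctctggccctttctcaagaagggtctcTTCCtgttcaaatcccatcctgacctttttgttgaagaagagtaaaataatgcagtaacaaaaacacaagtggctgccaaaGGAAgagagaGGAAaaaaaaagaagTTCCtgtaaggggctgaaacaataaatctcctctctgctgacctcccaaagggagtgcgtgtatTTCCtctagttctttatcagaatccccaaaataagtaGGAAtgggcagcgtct
Kdr: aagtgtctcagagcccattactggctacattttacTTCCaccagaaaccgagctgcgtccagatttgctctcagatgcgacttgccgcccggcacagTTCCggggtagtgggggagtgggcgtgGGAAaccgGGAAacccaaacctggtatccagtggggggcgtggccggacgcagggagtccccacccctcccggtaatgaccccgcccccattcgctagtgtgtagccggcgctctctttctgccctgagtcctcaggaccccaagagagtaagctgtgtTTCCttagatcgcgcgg
Cldn5: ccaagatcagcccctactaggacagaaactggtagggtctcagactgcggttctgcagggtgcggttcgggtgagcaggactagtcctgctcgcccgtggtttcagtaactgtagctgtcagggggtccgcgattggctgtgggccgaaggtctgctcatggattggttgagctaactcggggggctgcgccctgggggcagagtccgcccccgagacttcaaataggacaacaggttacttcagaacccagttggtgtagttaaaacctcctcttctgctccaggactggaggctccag
Esm1: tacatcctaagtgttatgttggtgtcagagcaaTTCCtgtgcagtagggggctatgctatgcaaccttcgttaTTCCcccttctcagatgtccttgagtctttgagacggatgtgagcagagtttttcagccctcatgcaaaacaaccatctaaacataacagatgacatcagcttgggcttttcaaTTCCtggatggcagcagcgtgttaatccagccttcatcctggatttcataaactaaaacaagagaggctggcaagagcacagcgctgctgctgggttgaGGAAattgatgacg

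The core occurred 6 times in the Emcn window, 5 times in that of Kdr, 4 times in that of Esm1 and 0 times in that of Cldn5. Among the windows not shown it occurred 9 times for Tie1, 4 times for Flt1 and 2 times for Tek. Over all 32841 promoters of this length, 96.0% held at least 1 core, with a median of 3, so its presence does not set these genes apart. The longer ACAGGAA, which contains the core, was found in Emcn (2), Esm1 (1) and Tie1 (1), and in 8.67% of all promoters. GATAA, a letter string of GATA factors, was found in Emcn (1) and Tek (1), and in 25.4% of all promoters. An NF-kB string, GGGNN directly followed by TTTCC, which also contains the core, was in none of the 7 windows and in 1.63% of all promoters. Both strands were searched, and a match is a description of letters, not a binding site.

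As a check of the genotype labels, Tnc signal was 1805 to 2699 in the 4 WT pools, 257 to 489 in the 4 KO pools and 66.3 to 144 in the cells. Replicate cultures of a group correlated at 0.962 to 0.969 across genes. All arrays shared 1 scaled mean, but the median probe set was at 51.0 to 64.6 in the cells and 119 to 134 in the tissue, so cell and tissue levels are compared below on both scales. The cultures expressed the smooth muscle actin Acta2 at 15304 to 23322, while the late contractile marker Myh11 averaged 346 in unstimulated cells against 8638 to 18978 in the pools. The summed signal of 6 macrophage markers was 370 to 550 in the cells against 11078 to 49268 in the pools.

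In the cultures labelled smooth muscle, 8 or 9 of the 10 endothelial identity genes reached the median probe set of each array. Each gene was read by its brightest probe set, and the share of all genes that reached it was not computed, so this count has no background. Emcn was at 9298 to 14206 on the 14 cell arrays against 1111 to 2519 in the 8 pools, and Cdh5 at 1629 to 2472 against 676 to 1502. Cells and pools did not overlap for either gene. Pecam1 was at 3097 to 5065 in the cells, within reach of the 1556 to 3974 of the pools, and Tie1, Flt1, Vwf and Esm1 also overlapped. Tek, Kdr and Cldn5 were lower in every cell array than in every pool. Over all genes, 10.5% were higher in every cell array than in every pool and 15.5% were lower. Tek was at 164 to 272 against 891 to 2348, and Kdr, the main signalling receptor for VEGF, at 44.5 to 98.1 against 521 to 878. Cldn5 was at 3.72 to 42.0 against 885 to 1436. Cldn5 was under the median probe set on all 14 cell arrays, and Kdr reached it on 9 of 14.

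Against the mean of both untreated KO pools, unstimulated cells were higher for Emcn by 2.92 on the log2 scale and for Esm1 by 1.52. They differed from the pools by 0.96 for Cdh5, 0.46 for Pecam1, 0.36 for Tie1 and -0.07 for Flt1. The log2 differences were -1.12 for Vwf, -2.29 for Tek, -3.13 for Kdr and -5.35 for Cldn5. Thus 2 of the 10 were at least 2-fold higher and 4 at least 2-fold lower, where 10.4% of 13010 compared genes were higher and 20.8% lower. With each array centred on its median the middle gene moves from -0.02 to 1.01, which takes Emcn to 3.95, Esm1 to 2.55, Cdh5 to 1.99, Pecam1 to 1.49, Tie1 to 1.39, Flt1 to 0.96 and Vwf to -0.08, and leaves Tek at -1.25, Kdr at -2.10 and Cldn5 at -4.32. On that scale, added after the data were seen, 5 of the 10 were 2-fold higher and 3 lower, where 50.7% of all compared genes were higher and 12.4% lower. Every cell array was then above every pool for 5 of the 10, with Pecam1, Tie1 and Flt1 joining Emcn and Cdh5, and below for the same 3 as before. The share of all genes separated in this way after centring was not computed, so these counts have no background. Culture, cell purity and tissue composition cannot be told apart in this comparison, and fewer cells of a type and less RNA per cell cannot be told apart in any of these bulk samples.

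**Figure D1:**
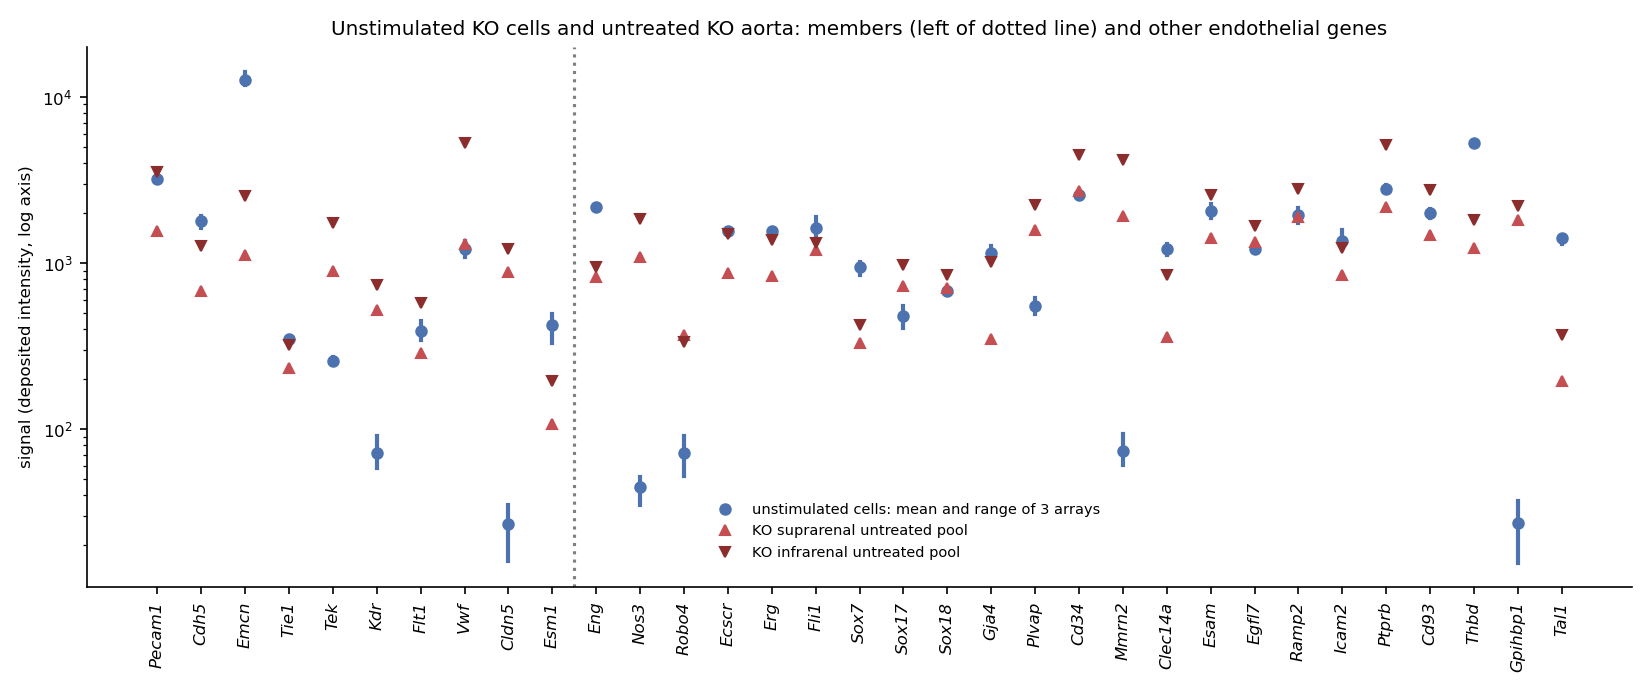
Signal (log axis) of the 10 endothelial identity genes, left of the dotted line, and of 23 other endothelial genes without Gja5, in unstimulated KO cells (circle with the mean, bar with the range of 3 arrays) and in the untreated KO suprarenal and infrarenal pools (triangles, 1 array each). Emcn and Cdh5 lay higher in the cells than in both pools, and Tek, Kdr, Cldn5, Nos3 and Gpihbp1 lower.

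Other endothelial genes split in the same cultures. Of 24 such genes 20 or 21 reached the median probe set on each cell array, a count again without a share of all genes beside it. Eng, an accessory receptor of the TGF-beta family, Sox7, Thbd and Tal1 were higher in all 14 cell arrays than in all 8 pools. Nos3, the endothelial nitric oxide synthase, averaged 44.8 in unstimulated cells against 1090 and 1838 in the untreated KO pools, and Gpihbp1, which anchors lipoprotein lipase on capillaries, 27.1 against 1814 and 2190. Nos3, Gpihbp1, Robo4, Sox17, Cd34 and Mmrn2 were lower in every cell array than in every pool, and the other 14 overlapped. Of all genes, 10.5% were higher and 15.5% lower in this way. After median centring Sox17 and Cd34 no longer belonged to that group, and their differences from the untreated KO pools turned from -0.81 to 0.23 and from -0.45 to 0.59. The other 4 stayed lower, and 9 of the 24 were then higher in every cell array than in every pool. No share of all genes was computed for these centred counts.

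TNF without TNC changed 5 of the 10 genes, 2 upward and 3 downward, where 34.6% of all tested genes were called, 14.3% higher and 20.3% lower. Vwf fell, with 1085, 1352 and 1200 in unstimulated cultures and 653, 624 and 669 with TNF. The groups did not overlap, and the log2 change was -0.90 (SE 0.09, adjusted p = 8.07e-06). Esm1 was at 441, 330 and 492 without and 180, 166 and 151 with TNF. Every TNF culture lay under every control, a fall of 1.33 (SE 0.31, adjusted p = 0.00587). Emcn went from 12108, 11809 and 14206 to 10397, 9803 and 9941, again with no overlap, by -0.33 (SE 0.07, adjusted p = 0.0038). Centred on the array medians, which differed by -0.11 between these groups, Emcn changed by -0.22 with an adjusted p of 0.155, so its call depended on the scaling.

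Cdh5 and Pecam1 moved the other way. Cdh5 rose from 1629, 1857 and 1914 to 2317, 2311 and 2366, by 0.38 (SE 0.08, adjusted p = 0.00235), and the TNF cultures were all above the controls. Pecam1 rose from 3097, 3324 and 3231 to 4200, 3792 and 3890, by 0.30 (SE 0.07, adjusted p = 0.00393), also without overlap. Flt1, a VEGF receptor that also acts as a decoy, was at 343 to 447 without and 497 to 584 with TNF, a difference of 0.45 (SE 0.17) that missed the threshold (adjusted p = 0.0658). It passed with quantile normalization (adjusted p = 0.0278) and with median centring (0.0414), so this result depended on the processing. Tek differed by -0.24 (adjusted p = 0.0876). Tie1 (-0.07, adjusted p = 0.742), Kdr (0.02, adjusted p = 0.97) and Cldn5 (-0.95, SE 0.86, adjusted p = 0.45) did not pass, and the dim Kdr carried a standard error of 0.31.

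**Figure D2:**
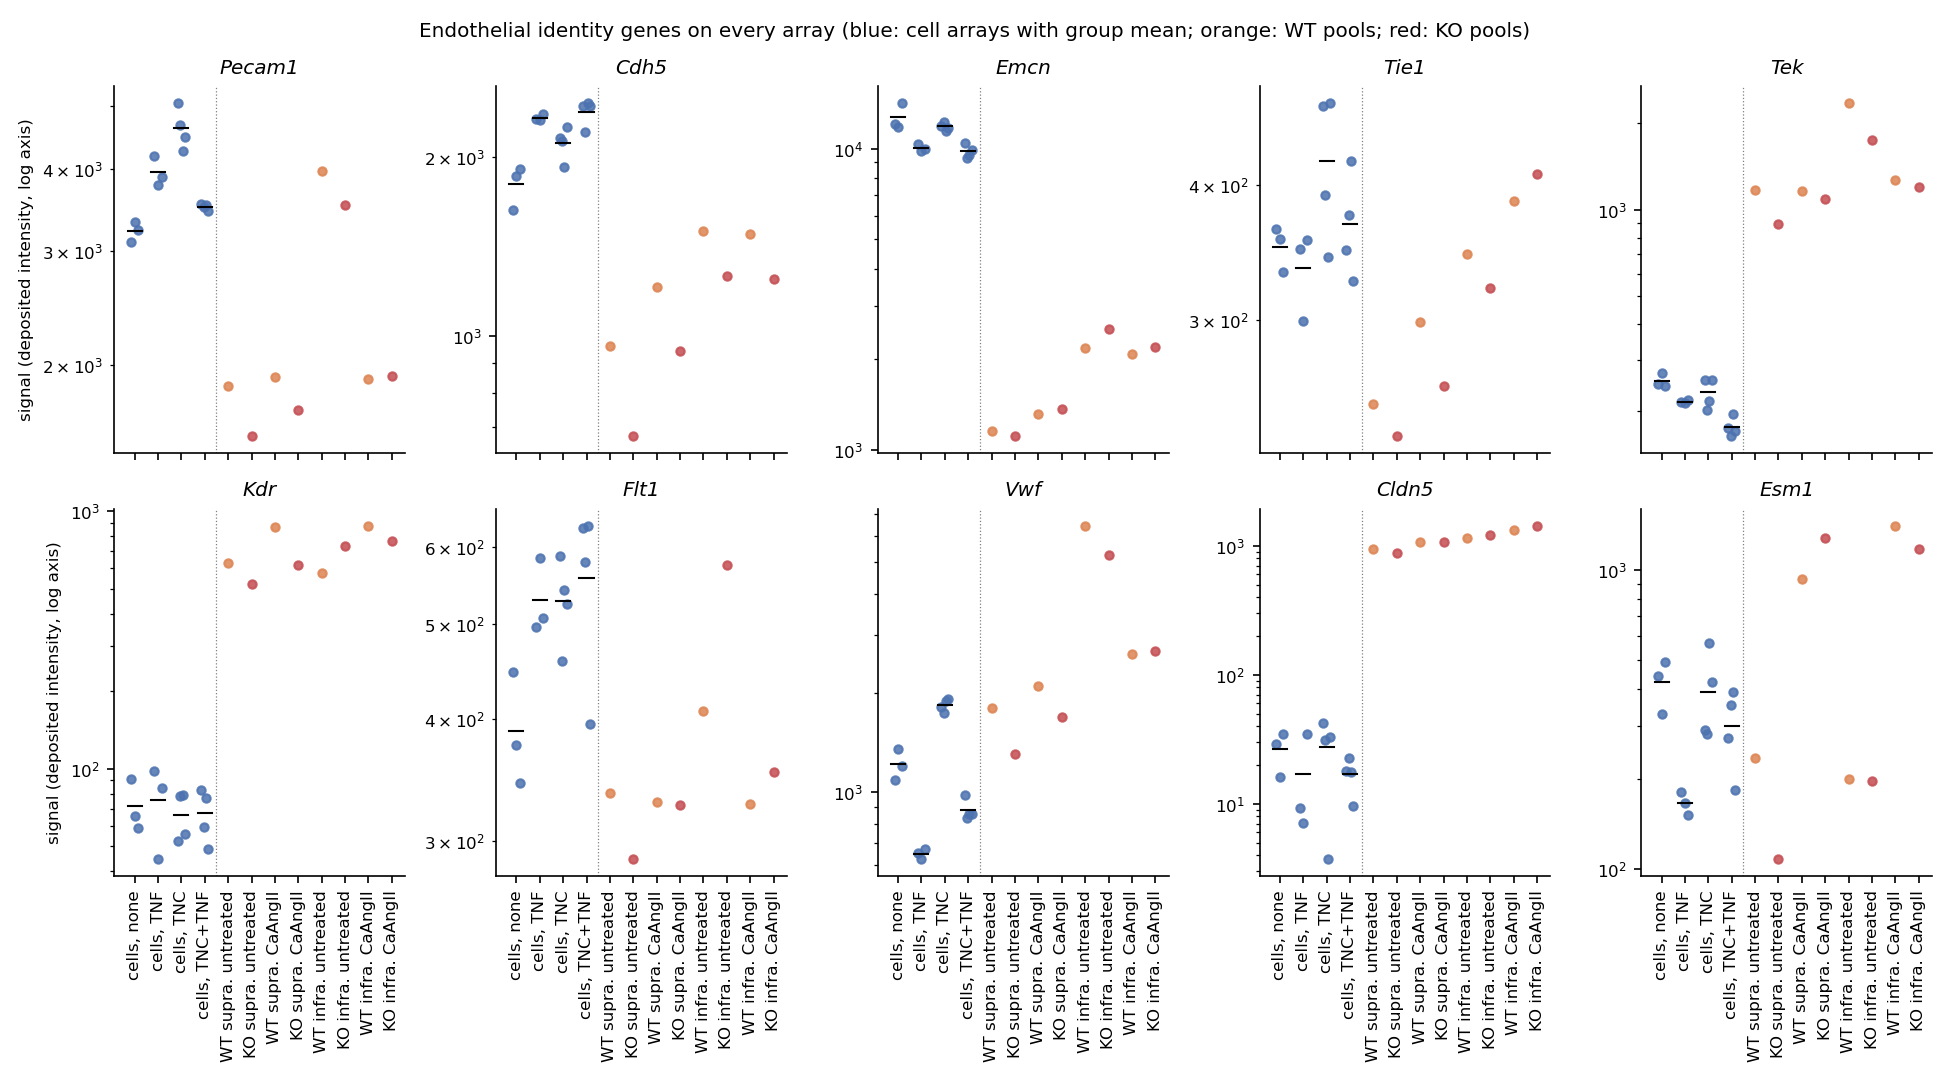
Signal (log axis, a range of its own for each gene) of the 10 genes on every array, with cultures in blue by treatment and a line at each group mean, WT pools in orange and KO pools in red. Among the cultures Vwf was lowest in the 3 with TNF alone, and Pecam1 was highest in the 4 with TNC alone.

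In the presence of TNC, TNF lowered 4 of the 10 and raised 0, against a background of 22.1% called, 9.6% of all genes higher and 12.5% lower. Vwf was at 1811, 1739, 1887 and 1913 with TNC and 979, 833, 858 and 858 with both factors. The groups lay far apart (log2 change -1.06, SE 0.07, adjusted p = 2.14e-06). Pecam1 was at 5065, 4683, 4273 and 4485 with TNC and 3537, 3504, 3532 and 3458 with both. Here it fell by 0.40 (SE 0.06, adjusted p = 0.00044), the opposite of its rise without TNC. Emcn fell by 0.28 (SE 0.06, adjusted p = 0.00885), and by 0.24 with an adjusted p of 0.11 after median centring. Tek, at 202 to 257 with TNC and 164 to 196 with both, fell by 0.40 (SE 0.09, adjusted p = 0.00677). Cdh5 (0.18, adjusted p = 0.0798), Esm1 (-0.38, adjusted p = 0.375), Tie1, Kdr, Flt1 and Cldn5 did not pass.

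The test of the difference between both TNF effects called Pecam1 alone among the 10, at -0.70 (SE 0.09, adjusted p = 0.000215), where 18.8% of all genes were called, 9.81% above and 9.01% below 0. The estimate for Esm1 was 0.95 (adjusted p = 0.141), and without the fourth culture with both factors it was 1.17 with an adjusted p of 0.0484. The Vwf fall was not shown to differ by TNC (-0.16, adjusted p = 0.372), nor was that of Emcn (0.06, adjusted p = 0.747). These comparisons share arrays with each other and with those of TNC below.

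TNC without TNF raised 3 of the 10 and lowered 0, where 31.8% of all genes were called, 16.1% higher and 15.7% lower. Pecam1 was at 3097 to 3324 in controls and 4273 to 5065 with TNC, a rise (log2 change 0.52, SE 0.06, adjusted p = 6.85e-05). Vwf was at 1085 to 1352 in controls and 1739 to 1913 with TNC, also a rise (0.60, SE 0.08, adjusted p = 0.00016). Neither gene's groups overlapped. Cdh5 was at 1928 to 2245 against 1629 to 1914, a rise of 0.23 (SE 0.07, adjusted p = 0.0269). That call was lost without control culture 1 (adjusted p = 0.12) and without TNC cultures 1, 2 or 4 (0.0598, 0.0548 and 0.0695), and with the most variable probe set (0.639). Flt1 differed by 0.44 (SE 0.16, adjusted p = 0.0568) and Tie1 by 0.25 (SE 0.13, adjusted p = 0.156). Both passed after median centring (adjusted p = 0.0182 and 0.0317), and Flt1 also with quantile normalization (0.0422). The 3 other probe sets of Flt1 differed by 0.26, 0.05 and -0.05, each with overlapping groups. Emcn, Tek, Kdr, Cldn5 and Esm1 differed by -0.09, -0.14, -0.11, -0.34 and -0.15 and did not pass. Array medians differed by -0.17 here, and centring on them called 5 of the 10, all higher.

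With TNF present, TNC changed 2 of the 10, 1 in each direction, against 28.2% of all genes, 16.3% higher and 11.9% lower. Vwf rose, from values of 624 to 669 with TNF to values of 833 to 979 with both (0.44, SE 0.08, adjusted p = 0.00176), with no overlap. Tek fell, from values of 213 to 219 to values of 164 to 196 (-0.30, SE 0.09, adjusted p = 0.0354). After median centring Tek differed by -0.20 (adjusted p = 0.163) and Esm1 was called at 0.90 (adjusted p = 0.0395), so that both calls were then upward. The Tek call also did not hold when any of the 3 TNF cultures, or culture 1, 2 or 4 with both factors, was left out (adjusted p = 0.0666 to 0.0963). The count of 2 became 1 without any 1 of the 3 TNF cultures or culture 1 or 2 with both factors, and 4 without TNC culture 3. Pecam1 (-0.17, adjusted p = 0.0549) and Esm1 (0.80, SE 0.29, adjusted p = 0.0609) lay just outside the threshold.

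Both factors together, against none, changed 5 of the 10, 2 upward and 3 downward, where 43.3% of all genes were called, 20.7% higher and 22.5% lower. Cdh5 rose by 0.41 (SE 0.07, adjusted p = 0.000624), but by 0.22 with an adjusted p of 0.0608 when read by its most variable probe set. Flt1 rose by 0.50 (SE 0.16, adjusted p = 0.025), although the Flt1 groups overlapped, at 343 to 447 against 395 to 631. The Flt1 call was lost without control culture 2 or 3 (adjusted p = 0.0718 and 0.101) or without culture 1, 2 or 3 with both factors (0.0639, 0.0565 and 0.0629). Tek fell by 0.54 (SE 0.09, adjusted p = 0.00066), Vwf by 0.46 (SE 0.08, adjusted p = 0.000653) and Emcn by 0.37 (SE 0.07, adjusted p = 0.000946). After centring on medians, which differed by -0.21, Vwf (-0.25, adjusted p = 0.0695) and Emcn (-0.16, adjusted p = 0.228) no longer passed. Centring also moved the share of higher genes among all calls, from 41.2% to 57.4% for TNF without TNC, from 50.7% to 76.2% for TNC without TNF, from 57.8% to 74.2% for TNC with TNF, from 47.9% to 71.4% for both against none and from 52.1% to 39.0% for the difference of TNF effects.

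**Figure D3:**
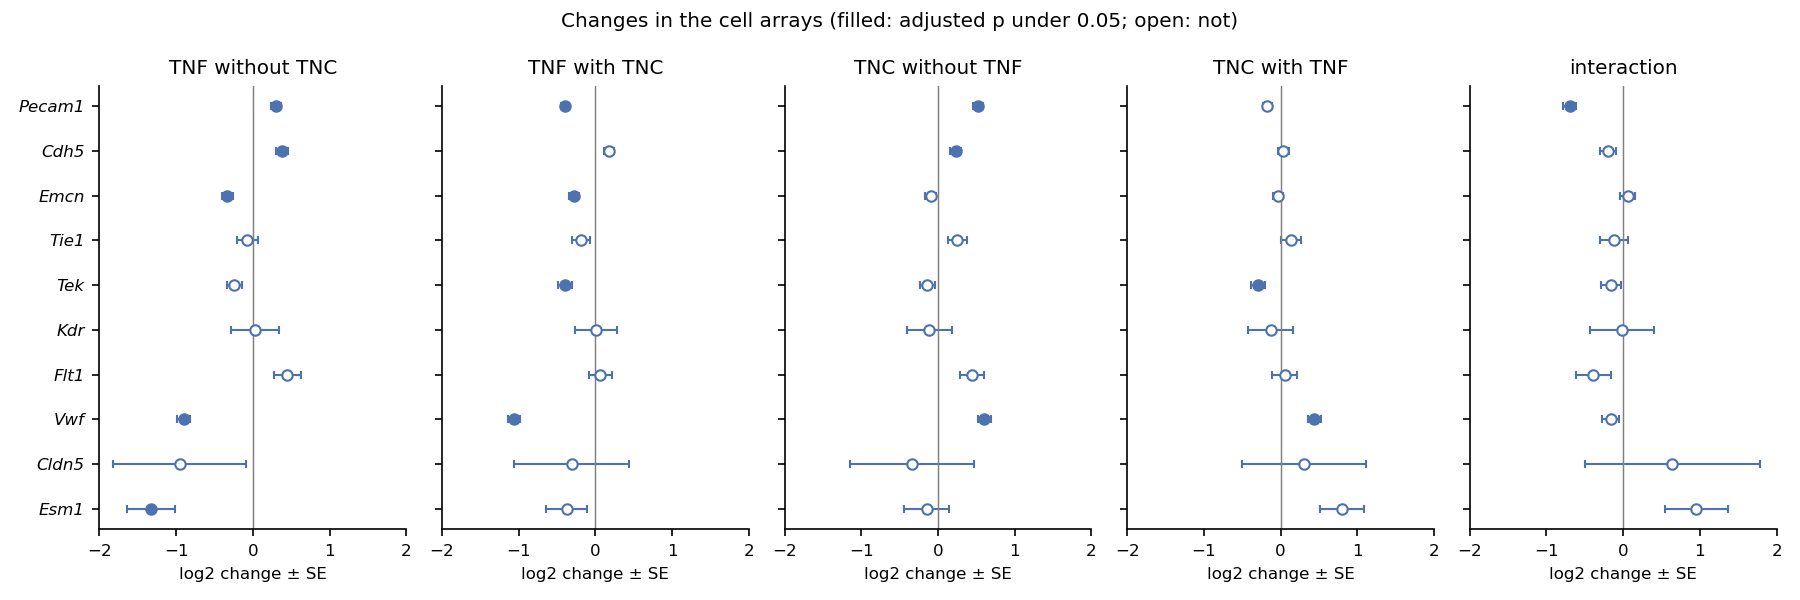
Log2 change of each of the 10 genes for TNF and for TNC, each without and with the other factor, and for the difference of the TNF effects (interaction), with the standard error of the limma fit as bars and filled points for an adjusted p under 0.05. Vwf lay below 0 with TNF and above 0 with TNC, and Pecam1 lay above 0 with TNF alone and below 0 when TNF was added to TNC.

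Among the 23 other endothelial genes tested, TNF without TNC raised 7 and lowered 7, where 14.3% of all tested genes rose and 20.3% fell, and TNF with TNC raised 3 and lowered 10, where 9.6% rose and 12.5% fell. TNC without TNF raised 8 and lowered 6, where 16.1% rose and 15.7% fell, and TNC with TNF raised 3 and lowered 11, where 16.3% rose and 11.9% fell. The lectin-like surface protein gene Clec14a fell with TNF alone by 1.53 (SE 0.20, adjusted p = 0.000114) and with TNC alone by 1.57 (SE 0.19, adjusted p = 8.28e-05). Ecscr, an endothelial surface gene, rose with TNF alone by 1.49 (SE 0.05, adjusted p = 1.58e-09) and with TNC alone by 1.17 (SE 0.05, adjusted p = 9.56e-09). Plvap, which forms the diaphragms of fenestrae, rose with TNC alone by 1.44 (SE 0.09, adjusted p = 2.92e-07). The transcription factor Sox18 fell when TNF was added to TNC, by 1.40 (SE 0.14, adjusted p = 3.89e-05), as did the phosphatase Ptprb, a partner of Tek and Cdh5, by 1.09 (SE 0.07, adjusted p = 1.53e-06).

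Of 11 ligands and co-receptors of the VEGF and angiopoietin systems, TNF without TNC raised 3 and lowered 4, where 14.3% of all tested genes rose and 20.3% fell. Vegfc, a ligand of the lymphatic receptor Flt4, averaged 877 in controls and 4278 with TNF, a rise of 2.29 (SE 0.22, adjusted p = 9.98e-06). Angpt2, which can act as an antagonist of Tek, averaged 2908 in controls and 852 with TNF, a fall of 1.77 (SE 0.08, adjusted p = 2.09e-08). When TNF was added to TNC, Angpt2 fell by 1.39 (SE 0.07, adjusted p = 2.81e-07), and Angpt1, the agonist of Tek, rose by 1.17 (SE 0.25, adjusted p = 0.00582). TNC alone lowered Angpt1 by 1.94 (SE 0.27, adjusted p = 0.000231) and Vegfd by 2.00 (SE 0.12, adjusted p = 3.89e-07). Marker levels of other cells moved with these treatments: the summed smooth muscle signal was 39970 to 41496 in controls, 23509 to 25565 with TNF, 32022 to 35172 with TNC and 23986 to 27099 with both. The summed fibroblast signal was 8532 to 10211 in controls and 22344 to 29341 in stimulated cultures. Their part in the endothelial values was not tested.

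In the aorta, Esm1 stood apart from the other 9 genes under CaAngII. In the infrarenal segment it was at 200 in the untreated and 1409 in the CaAngII WT pool, and at 196 and 1174 in the KO pools, log2 ratios of 2.82 and 2.58. In the suprarenal segment it was at 235 and 934 in WT and 108 and 1283 in KO, ratios of 1.99 and 3.58. The untreated KO value of 108 lay under that array's median probe set of 124.8. All 4 CaAngII pools lay above all 4 untreated pools. Esm1 was the 1 gene of 10 at least 2-fold different in both genotypes, in either segment, where 12.6% of genes differed so in the infrarenal pairs (8.5% higher) and 1.45% in the suprarenal pairs (0.505% higher).

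Vwf and Pecam1 were lower in the treated infrarenal segment. Vwf was at 6473 in the untreated and 2625 in the CaAngII WT pool, and at 5247 and 2688 in KO, log2 ratios of -1.30 and -0.97. Pecam1 was at 3974 and 1909 in WT and 3529 and 1923 in KO, ratios of -1.06 and -0.88. The angiopoietin receptor Tek was at 2348 and 1269 in WT and 1744 and 1194 in KO, ratios of -0.89 and -0.55. Flt1 had ratios of -0.32 and -0.70, and its 3 other probe sets gave -0.07, 0.19 and -0.11 in WT and -0.23, -0.34 and -0.34 in KO. At 2-fold, 2 of the 10 were lower in WT and 0 in KO, where 7.05% and 6.34% of all genes were. Kdr had 0.61 in WT and 0.06 in KO. Cdh5 differed by -0.02 in both genotypes, Emcn by -0.06 and -0.20, Tie1 by 0.17 and 0.35, and Cldn5 by 0.21 and 0.24. A second probe set of Cdh5 gave -0.94 and -0.60, so both of its probe sets disagree there. The second was dim, at 35.5 to 70.5 in the pools, under the median probe set of every pool.

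In the suprarenal segment, away from the CaCl2, the 9 genes beside Esm1 had CaAngII ratios between -0.03 and 0.48. Vwf was at 1804 untreated and 2097 under CaAngII in WT and at 1306 and 1692 in KO, and Pecam1 at 1860 and 1922 in WT and 1556 and 1708 in KO. Both were thus slightly higher under CaAngII in this segment, within 1 pool per condition. In the KO suprarenal CaAngII pool the summed platelet marker signal was 10371 against 1792 to 5491 in the other pools, and its part in that pool's Vwf and Pecam1 values was not tested.

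**Figure D4:**
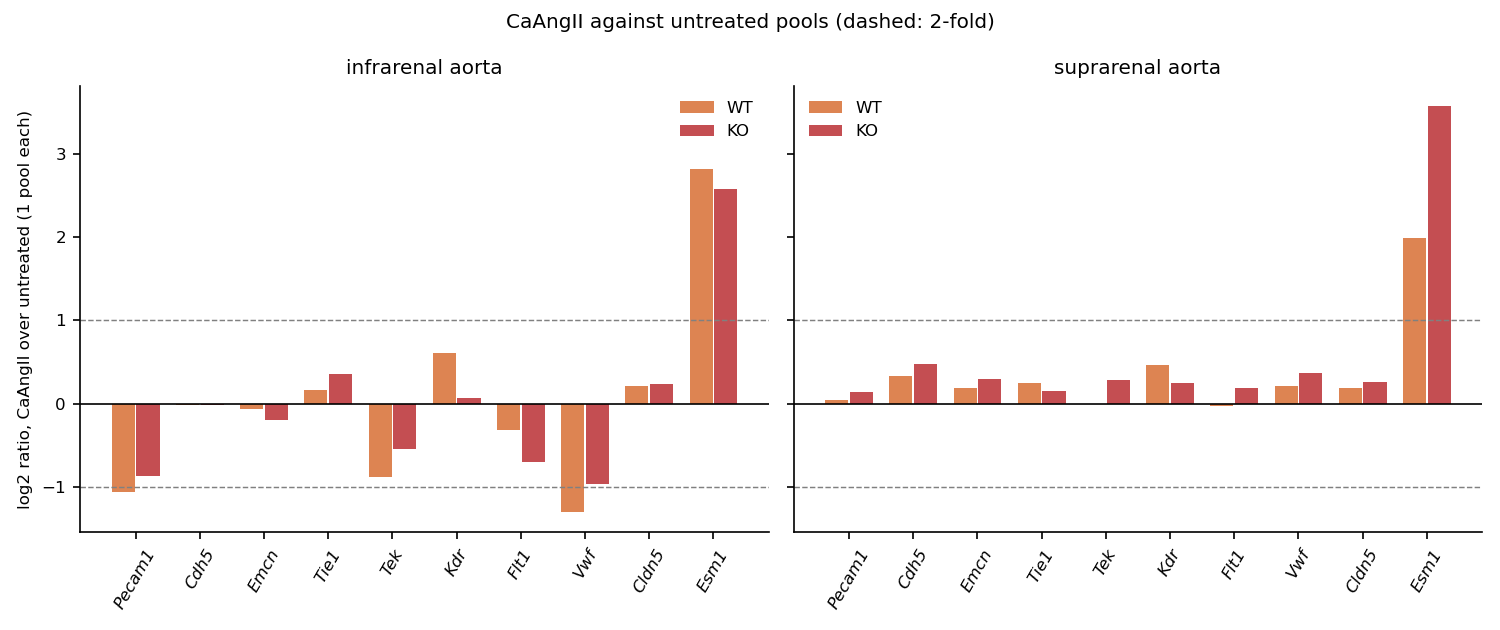
Log2 ratio of CaAngII over untreated pools for each of the 10 genes, in the infrarenal and suprarenal aorta, with 1 bar per pair of pools (WT orange, KO red), no error, and dashed lines at 2-fold. Esm1 lay at 1.99 to 3.58 in all 4 pairs, and Vwf and Pecam1 lay between -1.30 and -0.88 in the infrarenal pairs.

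Other cell markers differed strongly between the same infrarenal pools. Summed smooth muscle signal was 91429 untreated and 51223 under CaAngII in WT and 91540 and 58620 in KO. Fat markers summed to 36449 and 16310 in WT and 36825 and 20134 in KO, and macrophage markers to 12677 and 49174 in WT and 11078 and 49268 in KO. Adrenal cortex markers summed to 357 and 364 in WT and 5545 and 622 in KO. Platelet markers summed to 4568 and 4038 in WT and 3865 and 5491 in KO, and did not move together. Ppbp was at 938 and 202 in WT and 873 and 523 in KO, and Pf4 at 2932 and 3353 in WT and 2415 and 4420 in KO. In the suprarenal pools macrophage markers summed to 14587 and 18685 in WT and 12116 and 19680 in KO. The part of these in the endothelial ratios was not tested. Of the other endothelial genes, Ptprb had infrarenal CaAngII ratios of -1.39 in WT and -1.16 in KO. Nos3 had -1.15 and -0.81, and Gpihbp1 -1.03 and -0.83. Fli1 was higher, at 1528 untreated and 2114 under CaAngII in WT and 1321 and 1765 in KO. Of 23 counted, 6 in WT and 10 in KO were above 0, where 50.1% and 55.0% of all genes were. At 2-fold, 4 were lower in WT and 1 in KO, where 7.05% and 6.34% of all genes were. The median over these 23 was -0.32 in WT and -0.04 in KO. The lymphatic receptor Flt4, counted with the VEGF co-receptors, had 0.82 and 1.08.

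Among untreated pools, most endothelial identity genes were higher in the infrarenal than in the suprarenal pool, as were markers of several other cell types. Vwf was at 1804 suprarenal and 6473 infrarenal in WT, and 1306 and 5247 in KO, log2 ratios of 1.84 and 2.01. Pecam1 had ratios of 1.09 and 1.18. Tek had 1.01 and 0.97, Emcn 0.91 and 1.18, and Cdh5 0.65 and 0.90. In WT 8 of the 10 were above 0 with a median of 0.55, and in KO 10 of 10 with a median of 0.94, where the medians of all genes were 0.01 and -0.06. Of all genes, 50.9% in WT and 44.9% in KO were above 0. Vwf and Pecam1 were 2-fold higher in both genotypes, against a background of 7.36% of genes in either direction and 1.12% higher. Of 23 other endothelial genes 22 were above 0 in each genotype, among them the arterial connexin gene Gja4 at 1.30 and 1.54, Clec14a at 1.09 and 1.24, and Mmrn2 at 1.01 and 1.13. Smooth muscle markers were above 0 in 6 of 6 (median 0.42 in WT and 0.48 in KO), pericyte markers in 5 of 5 (0.63 and 0.58), fibroblast markers in 5 of 5 (0.53 and 0.71) and platelet markers in 4 of 4 (0.54 and 0.66), with the platelet chemokine gene Ppbp at 2.71 and 2.74. Macrophage markers had medians of -0.16 and -0.15. The part of these cell types in the endothelial ratios was not tested. Adrenal cortex markers summed to 5545 in the untreated KO infrarenal pool and 2805 in the WT suprarenal CaAngII pool against 308 to 622 in the others, and their part in the KO values was not tested.

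Between the segments, Vwf and Pecam1 differed less under CaAngII than untreated, while some others, such as Esm1 in WT, differed more. Esm1 in WT was at 235 suprarenal and 200 infrarenal untreated, and 934 and 1409 under CaAngII. The median log2 ratio of the 10 under CaAngII was 0.31 in WT and 0.36 in KO. Medians of all genes were 0.03 and 0.05. Vwf was at 2097 and 2625 in WT and 1692 and 2688 in KO, log2 ratios of 0.32 and 0.67, and Pecam1 had -0.01 and 0.17. Emcn had ratios of 0.66 and 0.68. None of the 10 was 2-fold different in both genotypes, where 13.1% of all genes were.

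**Figure D5:**
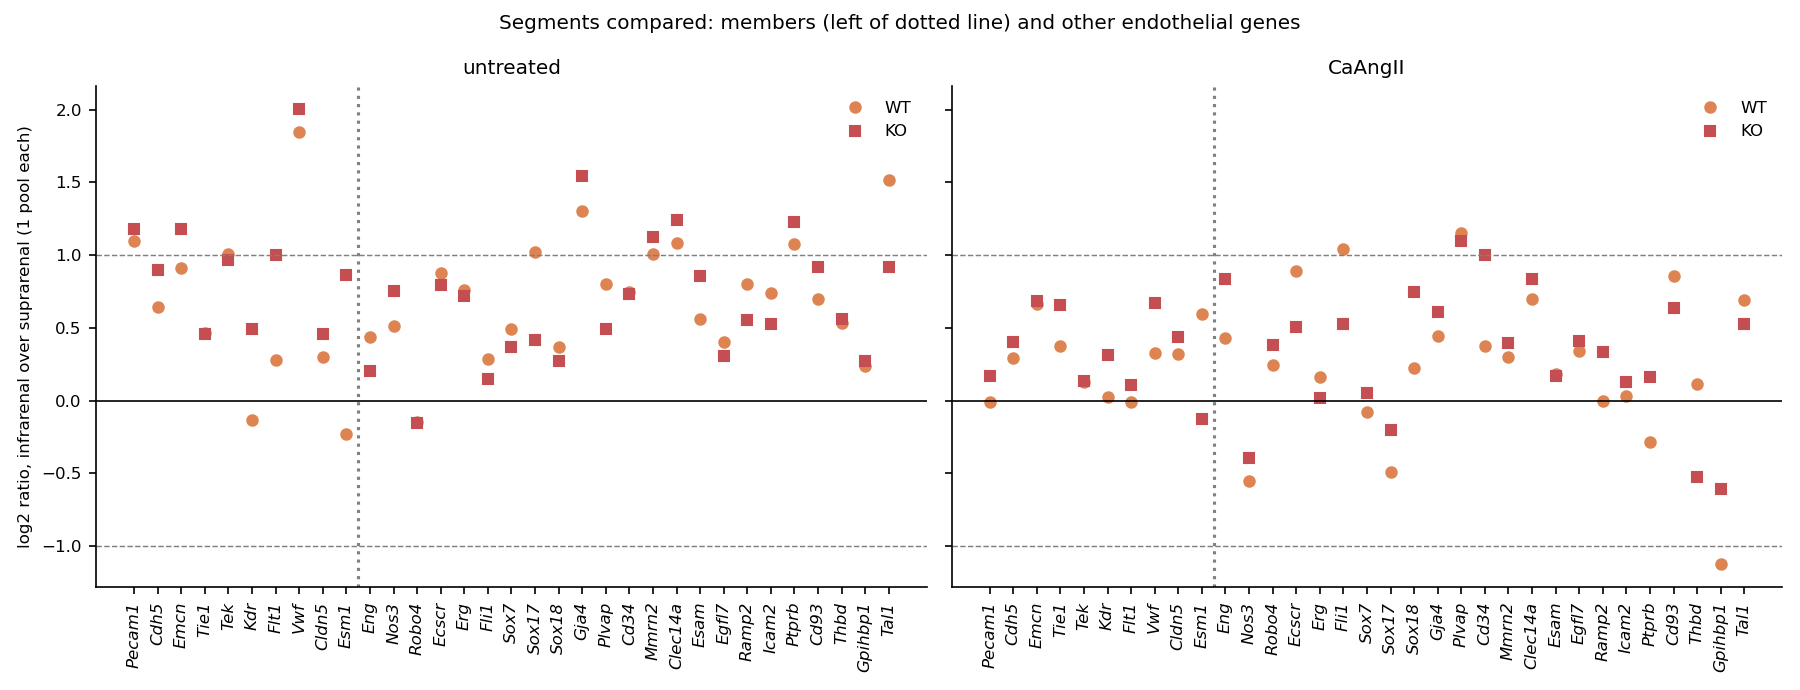
Log2 ratio of infrarenal over suprarenal pools for the 10 genes, left of the dotted line, and 23 other endothelial genes without Gja5, untreated and under CaAngII, with 1 point per pair of pools (WT circles, KO squares), no error, and dashed lines at 2-fold. Vwf had the highest untreated ratios of the 10 genes, 1.84 and 2.01, and 0.32 and 0.67 under CaAngII.

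KO and WT pools differed little in these genes, apart from Esm1 in 1 pair, the untreated suprarenal pools. Esm1 was at 108 in that KO pool, under the array's median probe set of 124.8. With log2(value + 32) its ratio was -0.93, and so under 2-fold. In the untreated suprarenal pools all 10 genes were lower in KO than in WT, with a median log2 ratio of -0.27, Cdh5 at -0.51, Vwf at -0.47 and Esm1 at -1.13, where 52.6% of all genes were above 0 with a median of 0.02. Smooth muscle (0 of 6 above 0), fibroblast (0 of 5) and platelet markers (0 of 4) were also lower in KO in that pair, and their part was not tested. In the untreated infrarenal pools the ratios ran from -0.43 for Tek to 0.50 for Flt1, whose other probe sets gave 0.16, 0.01 and 0.23. Under CaAngII they ran from -0.49 for Kdr to 0.46 for Esm1 in the suprarenal and from -0.26 for Esm1 to 0.11 for Flt1 in the infrarenal pools. Adrenal cortex markers summed to 5545 in the untreated KO infrarenal pool and 357 in the WT pool beside it. In the suprarenal CaAngII pools the sums were 2805 in WT and 434 in KO, and the part of these markers was not tested. None of the 10 was 2-fold different in both segments, where 0.324% of all genes were among untreated and 0.303% among CaAngII pools.

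The 10 genes did not vary as 1 block. As a description over the 8 pools, which share tissue makeup, Pecam1, Tek and Vwf ran together (r = 0.966 to 0.970 on log2 values), and so did Tie1 and Cldn5 (r = 0.965), while Pecam1 and Esm1 ran apart (r = -0.362). Over the 14 cell arrays the closest pair was Emcn and Vwf (r = 0.689) and the most opposed Cdh5 and Emcn (r = -0.692). The genes most like the mean standardised level of the 10 over the 8 pools, among 4255 compared (median r = -0.136), were Vegfd (r = 0.988), Gja4 (0.987), Angpt1 (0.984), Tcf21 (0.979), Itgbl1 (0.978), Palld (0.975), Lsr (0.975), Bace2 (0.973), Ddr2 (0.965) and Fzd6 (0.961). The median r was 0.722 over 17 other endothelial genes and 0.802 over 4 fibroblast markers.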

How the data were processed

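RNA of 22 samples was hybridised to the Affymetrix Mouse Genome 430 2.0 Array, 14 of cultured cells and 8 of aortic tissue. The unit of the deposited table is intensity, not on a log scale, and the authors made it with Affymetrix Expression Console, per the submitters' processing notes. Software version and summarisation method are not given in the sources used. Trimmed of the top and bottom 2%, the mean of the 45101 probe sets was 500 on every array (to 4 digits), while medians were lower in the cells than in the tissue by 1.12 on the log2 scale. Array number limits the precision.

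Values were taken as deposited to log2 with no pseudocount. Of the probe sets, 34945 name 1 gene, 932 name several, 9160 are unnamed here and 64 are controls. Symbols were updated through RefSeq identifiers. For each of 18193 genes the probe set brightest on average over the 22 arrays was kept. A gene was tested in the cells at or above the 30th percentile of an array's probe sets on at least 3 cell arrays, which left 15534. The 4 cell groups entered 1 limma fit (version 3.58.1 in R 4.3.3; residual degrees of freedom 10), and a gene was called at a Benjamini-Hochberg adjusted p under 0.05 over all tested genes. Every adjusted p is limma's. The code was tested on simulated data. Aortic ratios, 1 pool against 1, carry no test. They were counted at 2-fold among genes that reached the array's 50th percentile in 1 or more of the pools set side by side. Alternatives covered normalization, filters, probe set, log2(value + 32), the variance model, the arrays fitted, a replicate block and leaving out each array.

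The members, the lists and their markers were chosen with earlier results of these data known. In the text all 10 members are named, with up to 4 genes of each other list per comparison, taken by size among called genes with arrays that did not overlap, or by the smaller of both pool ratios, and the 10 genes most like the members over the pools. Other names were chosen after their values were seen. The design text calls the cultures independent. Same-numbered cultures of different groups did not deviate together (19 pairs, correlation -0.016 to 0.057, against -0.058 to 0.051 for 54 other pairs), so numbers were not taken as pairs. No pair of arrays held identical values.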

Additional observations from a re-analysis of the deposited data

Results flagged for a closer look

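The TNF effect on Pecam1 differed with TNC by -0.70 on the log2 scale (limma adjusted p = 0.000215). The 3 cultures with TNF alone lay above all controls, and the 4 with both factors lay below all with TNC alone. For 4 genes the CaAngII ratio had opposite signs in the segments in both genotypes, and these differences were not tested. The infrarenal mean minus the suprarenal mean was -1.06 for Pecam1, -0.42 for Cdh5, -0.37 for Emcn and -1.43 for Vwf. The infrarenal Cdh5 pools hardly differed, at 1502 untreated and 1484 under CaAngII in WT and 1262 and 1247 in KO. Emcn in WT was at 2175 and 2086, so these signs rest on ratios near 0. The second probe set of Cdh5 lay under the median probe set of every pool. It had the same sign in both segments in WT, at -0.94 infrarenal and -0.18 suprarenal. In KO it gave -0.60 and 0.68.

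Single cultures stood apart from the other 3 of their group in 2 of 20 sets of 4 values, and chance alone gives about 1 in 20. Cdh5 was at 2203 in culture 2 with both factors, and Cldn5 was at 3.716 in TNC culture 3.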

How the results depend on the processing

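No direction of a called value turned under any setting tried: of the single values of the 10 genes under alternatives, and 1 count set against the aorta, 1956 kept their side of the threshold, 33 gained a call, 29 lost one and 7 aortic ratios crossed 2-fold. Causes of these moves were not tested. For TNC without TNF, median centring called 5 of the 10 in place of 3. For TNC with TNF, 2 became 4 with the stricter filter, 1 with the most variable probe set and 1 with the replicate number as a block. The replicate block moved no other count by over 1.5 times, and these numbers did not pair the cultures. At 1.5-fold in place of 2-fold, the genes past the threshold in both pairs were 3 rather than 1 for infrarenal CaAngII, 5 rather than 2 for the untreated segments and 1 rather than 0 for the CaAngII segments. Leaving out each culture gave 5 to 6 genes for TNF without TNC, 4 for TNF on top of TNC, 2 to 4 for TNC without TNF, 1 to 4 for TNC on top of TNF, 4 to 5 for both against none and 1 to 2 for the difference of TNF effects, the 2 without culture 4 with both factors. With the most variable probe set, calls over all genes dropped from 5370 to 3483, 3431 to 2173, 4941 to 3141, 4387 to 2665 and 2923 to 1604 (in order, TNF alone against none, TNF on top of TNC, TNC alone against none, TNC on top of TNF, and the difference). Low signal limits what can be said of Cldn5 and Kdr in the cells, and 1 pool per condition limits every tissue ratio.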
